A study of Homo sapiens with 3 samples.

Results

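RAB proteins are small GTPases that mark the membranes of the secretory and endocytic pathways, and 60 of the 57773 genes in the deposited tables were RAB genes. They were taken as the protein-coding genes whose symbol is RAB, a number and at most 1 letter, without use of any measured value, and they are 60 of 20327 protein-coding genes. The RNA came from tumorspheres, the floating clusters that cells form on plates they cannot attach to, here of the established triple-negative human breast cancer line MDA-MB-231. There were 3 libraries, 1 per group, each at 24 h: untreated wild-type spheres (the control), wild-type spheres transfected with a LINC00273-pcDNA-CMV clone, in which the CMV promoter drives a long non-coding RNA, and wild-type spheres given M2 at 10 µM, an agent for which the labels give the code name alone. The medium of all 3 held epidermal growth factor, B27, insulin and albumin. Whether the control had an empty vector, a transfection reagent or the solvent of M2 is not given in the sources used here.

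A RAB protein switches between a GDP-bound form, held in the cytosol by a GDP dissociation inhibitor (GDI), and a GTP-bound form on a membrane, where it recruits effectors such as tethers and motor proteins. Exchange factors (GEF) load GTP, GTPase-activating proteins (mostly with a TBC domain) end the active state, and a lipid tail added with the help of an escort protein anchors the RAB. Each organelle has its own RABs, and in breast cancer cells RAB-driven recycling and secretion are studied for their part in moving integrins, growth factor receptors and proteases.

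The deposited values are reads divided by 1 factor per library, and whole reads were recovered from them. The control library held 8620534, the library with the label of LINC00273 overexpression 5123199 and the M2 library 4695535. The abundant RNAs RN7SL1 and RN7SK took 54.7%, 42.8% and 39.3% of them, which left 3586962, 2730122 and 2665480 reads on protein-coding genes. LINC00273 itself had 0 reads in all 3 libraries, so the overexpression is known from the label only, and a direction drawn from that library is one of the label. Of 8 markers of the line, 8, 7 and 8 had reads, and 3, 2 and 2 had at least 100. They summed to 12915, 9331 and 4617 reads. Most of these were of VIM, a mesenchymal filament gene, with 11763 in the control, 8910 in the LINC00273-labelled library and 4182 with M2. Of 6 genes expected low or absent in the line, 0, 0 and 1 had no reads, and they summed to 118, 103 and 54. The marker CD44 had 86, 44 and 29 reads, near the 61, 50 and 33 of ERBB2, 1 of those 6. Globin reads also set the libraries apart: HBB, a red blood cell gene, had 4860 reads in the control, 9 in the LINC00273-labelled library and 5417 with M2, and the 8 blood cell markers summed to 5889, 43 and 6633 reads. The part of these differences in the RAB values was not tested.

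Promoters of 4 RAB genes toward the ends of the comparisons are shown. RAB43, the lowest with M2 among the genes compared, is not shown. Among the 25 RAB genes with at least 100 reads in all, RAB23 was the highest in both comparisons with the control. RAB13 was at least 2-fold lower in both, and the paralogues RAB8A and RAB8B lay on opposite sides of the control. Each promoter is 250 bases before to 50 after a start listed by RefSeq (GRCh38.p14), printed 5′ to 3′ on the gene's strand. The title of the series concerns a G-quadruplex in the long non-coding RNA, not in promoters, and capitals mark a G-run pattern: 4 runs of GGG separated by 1 to 7 bases, or the same with CCC for the other strand.
RAB23 (chr6:57222258-57222557, minus strand, the upstream of 2 starts): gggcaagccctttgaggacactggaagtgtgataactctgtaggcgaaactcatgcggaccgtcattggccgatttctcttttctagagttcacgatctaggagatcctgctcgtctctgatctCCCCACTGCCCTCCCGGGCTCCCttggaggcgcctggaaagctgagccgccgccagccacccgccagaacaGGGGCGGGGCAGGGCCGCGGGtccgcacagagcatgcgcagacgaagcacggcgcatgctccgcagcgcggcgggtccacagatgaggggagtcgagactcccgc
RAB13 (chr1:153986290-153986589, minus strand, the upstream of 2 starts): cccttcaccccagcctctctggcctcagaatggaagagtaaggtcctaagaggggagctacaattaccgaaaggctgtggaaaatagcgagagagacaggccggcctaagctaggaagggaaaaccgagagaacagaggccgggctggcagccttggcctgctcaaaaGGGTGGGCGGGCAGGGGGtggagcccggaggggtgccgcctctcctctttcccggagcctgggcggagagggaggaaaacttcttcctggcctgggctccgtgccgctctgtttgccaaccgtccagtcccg
RAB8A (chr19:16111639-16111938, plus strand): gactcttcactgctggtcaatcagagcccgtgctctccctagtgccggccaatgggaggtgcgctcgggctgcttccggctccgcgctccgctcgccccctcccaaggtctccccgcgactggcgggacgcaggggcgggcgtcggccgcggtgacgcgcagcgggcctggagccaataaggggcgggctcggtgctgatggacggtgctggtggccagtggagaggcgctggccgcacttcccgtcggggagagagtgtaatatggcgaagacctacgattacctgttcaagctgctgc
RAB8B (chr15:63189356-63189655, plus strand): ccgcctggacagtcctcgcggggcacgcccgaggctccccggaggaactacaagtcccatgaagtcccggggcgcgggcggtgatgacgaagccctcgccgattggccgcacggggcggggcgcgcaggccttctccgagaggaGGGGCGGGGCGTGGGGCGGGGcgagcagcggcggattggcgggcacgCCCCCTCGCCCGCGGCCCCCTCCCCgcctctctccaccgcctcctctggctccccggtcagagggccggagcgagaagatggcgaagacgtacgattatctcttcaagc
The pattern was in RAB23, RAB8B and RAB13, and not in RAB8A, so among these 4 it fell on genes of both directions. It was also at all 4 listed starts of RAB43, which was lower in both comparisons with the control. At the other listed start of RAB13 it was absent. RefSeq promoters were matched for 47 of the 60 RAB genes, and RAB1A, RAB2A and RAB12 had no entry among the 25 with enough reads to compare. The pattern was in 22 of 67 RAB promoters (32.8%), in 30.7% of 20078 promoters of protein-coding genes and in 24.9% of all 35116 promoters of this length. Of 22 matched RAB genes with enough reads, 9 held it, and their median log2 ratio to the control was −0.31 in the LINC00273-labelled library and −0.01 with M2. The 13 without it had medians of −0.20 and −0.03. Between M2 and the LINC00273-labelled library the median was 0.01 for the 9 with the pattern, 5 of them positive, and 0.48 for the 13 without it, all 13 positive. Of all protein-coding genes with enough reads, 68.1% were positive in this comparison. Scaled to the total count, RAB22A, RAB28, RAB5B, RAB5C and RAB7A of the 13 turned negative, as did RAB34 of the 9. No test of the difference between the 9 and the 13 was made.

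The 60 RAB genes held 22766 reads in the control, 19114 in the LINC00273-labelled library and 18516 with M2. That was 0.635% (95% exact binomial interval 0.623 to 0.646), 0.700% (0.686 to 0.714) and 0.695% (0.681 to 0.709) of the protein-coding reads. Intervals here were computed on fragments, as 1 fragment was mostly counted as 2 reads, and they cover counting error only. In this bulk RNA, fewer cells of a type and less RNA per cell cannot be told apart.

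Of the 60 genes, 25 had at least 100 reads summed over the 3 libraries, the minimum for a comparison, 33 had 1 to 99 reads, and RAB24 and RAB40B had 0 in all 3. In the whole set, 22, 22 and 19 genes had at least 100 reads in the control, the LINC00273-labelled library and the M2 library, and 11, 8 and 13 had 0. The minimum fell in a gap: RAB22A with 144 reads in all and RAB23 with 172 were the lowest genes above it, and RAB30 with 80 and RAB37 with 70 the highest below it. A 0 allows up to 3 fragments, which is 0.832, 0.977 and 1.28 CPM (scaled counts relative to library size) in the 3 libraries.

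**Figure D1:**
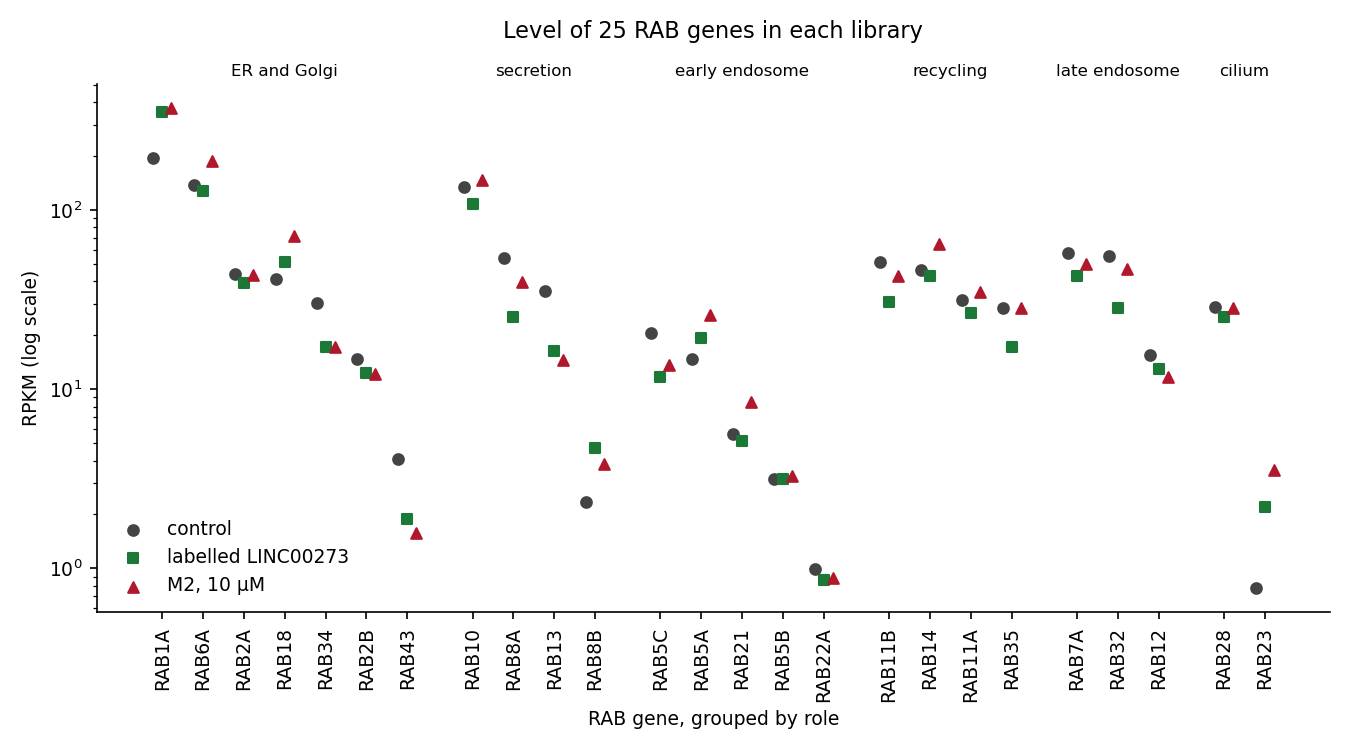
Level of the 25 RAB genes with at least 100 reads, grouped by role, as RPKM on a log scale, with 1 point per library and no error bars because each group is 1 library. RAB1A is at the top in all 3 libraries, between 196 and 371 RPKM, and RAB23 and RAB22A are at the bottom of the control.

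Levels between genes were compared per length, as RPKM (scaled reads relative to library size and to the kilobases of the longest coding transcript). The 8 highest RAB genes of the control were RAB1A, RAB6A, RAB10, RAB7A, RAB32, RAB8A, RAB11B and RAB14. RAB1A (ENSG00000138069), which directs vesicles from the endoplasmic reticulum to the Golgi, stood at 196 RPKM in the control, 354 in the LINC00273-labelled library and 371 with M2. RAB6A, which serves retrograde traffic at the Golgi, stood at 138, 129 and 188 RPKM, and RAB10, which serves delivery to the plasma membrane, at 134, 108 and 147 RPKM. RAB1A was the highest RAB gene in each library, and the values of RAB6A and RAB10 were close to each other in the control. Below them RAB7A of the late endosome had 57.6, 42.8 and 49.8 RPKM, and RAB32 of lysosome-related organelles had 55.5, 28.4 and 47.2 RPKM. RAB8A, which carries vesicles from the Golgi to the cell surface, had 54.1, 25.5 and 39.6 RPKM. The recycling endosome genes RAB11B and RAB14 had 51.6, 30.9 and 43.1 RPKM, and 46.4, 42.6 and 65.0 RPKM.

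Within the family, reads shifted to RAB1A. It held 3466 of 22766 RAB reads in the control, or 15.2% (14.6 to 15.9), 5321 of 19114, or 27.8% (26.9 to 28.7), in the LINC00273-labelled library, and 4254 of 18516, or 23.0% (22.1 to 23.8), with M2. These shares do not depend on how libraries are scaled, and their intervals do not overlap. RAB1A, RAB6A and RAB10 together held 45.1%, 54.1% and 52.3% of the RAB reads. The log2 ratio of all RAB reads to the control was −0.02 (−0.06 to 0.02) in the LINC00273-labelled library, and without RAB1A it was −0.25 (−0.30 to −0.21). With M2 the same log2 ratios were 0.32 (0.28 to 0.36) and 0.18 (0.14 to 0.23).

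The question of the first comparison is what differed in the RAB genes between the LINC00273-labelled library and the control. Of the 25 RAB genes compared, only RAB23 was at least 2-fold higher. In the mouse RAB23 restrains Hedgehog signalling and acts at the cilium. RAB13, a RAB of cell junctions and polarised delivery, RAB8A and RAB43, a Golgi RAB, were at least 2-fold lower. The other 21 genes lay within 2-fold. With 1 library per group there is no replicate check and no test, and log2 ratios are of TMM-scaled reads with 95% Clopper-Pearson intervals of the split of fragments.

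In numbers, 1 of 25 RAB genes was at least 2-fold higher, against 5.96% of 4748 protein-coding genes with the same minimum, and 3 were at least 2-fold lower, against 6.04%. At 1.5-fold, 3 were higher (background 17.8%) and 8 lower (background 24.6%). The median log2 ratio of the 25 genes was −0.24, beside −0.14 over all protein-coding genes. It was positive for 6 genes and negative for 19 (76.0%, beside 57.5% of all protein-coding genes). The counting interval lay above 0 for 5 genes (20.0%, beside 23.5%) and below 0 for 13 (52.0%, beside 32.4%). Scaled to the total count, or centred on genes of like GC content, 0 RAB genes were at least 2-fold lower, and with a minimum of 100 reads in 1 or both libraries compared RAB23 was not among the genes compared.

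RAB23 (ENSG00000112210) had 27 reads in the control, 65 in the LINC00273-labelled library and 80 with M2. Both other libraries were higher than the control, with M2 the highest. Its log2 ratio was 1.5 (0.54 to 2.53) in the LINC00273-labelled library, which is 2.83-fold. RAB13 (ENSG00000143545) had 344, 136 and 92 reads, and its log2 ratio here was −1.11 (−1.53 to −0.69). Both other libraries were below the control, and between M2 and the LINC00273-labelled library its log2 ratio was −0.17 (−0.75 to 0.39). Of its 100-base stretches, 35.9% also occur exactly in transcripts of other annotated genes, so that its count may be split between copies. RAB8A (ENSG00000167461) had 1102, 442 and 524 reads and a log2 ratio of −1.09 (−1.32 to −0.86), or 2.12-fold lower. RAB43 had 131, 52 and 33 reads and a log2 ratio of −1.10 (−1.82 to −0.43), but 90.8% of its 100-base stretches are shared, mostly with the readthrough gene ISY1-RAB43, and its values are uncertain.

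Just inside the 2-fold limit, RAB8B had 84, 142 and 89 reads and a log2 ratio of 0.99 (0.42 to 1.58), and RAB32 had 487, 212 and 269 reads and one of −0.97 (−1.31 to −0.63). RAB1A had a log2 ratio of 0.85 (0.76 to 0.94), with the narrowest interval among the higher genes. The 4 recycling endosome RABs with enough reads were below the control in this library, where 57.5% of all protein-coding genes were, with log2 ratios from −0.74 for RAB11B to −0.12 for RAB14, whose interval held 0. Scaled to the total count, RAB11A and RAB14 turned positive, at 0.28 and 0.40. RAB35, which drives fast return to the plasma membrane, had 606, 310 and 392 reads and a log2 ratio of −0.74 (−1.02 to −0.45). Of the 3 late endosome genes, RAB7A, RAB32 and RAB12, all with negative log2 ratios, RAB7A and RAB12 turned positive with the total count, at 0.09 and 0.27. The interval of RAB12, from −0.67 to 0.16, held 0. RAB10 had 3422, 2349 and 2441 reads and a log2 ratio of −0.31 (−0.42 to −0.20). RAB28, a cilium RAB of photoreceptors, had 376, 280 and 240 reads, and RAB22A, an early endosome RAB, 62, 46 and 36 reads, with intervals that held 0 in both comparisons with the control.

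**Figure D2:**
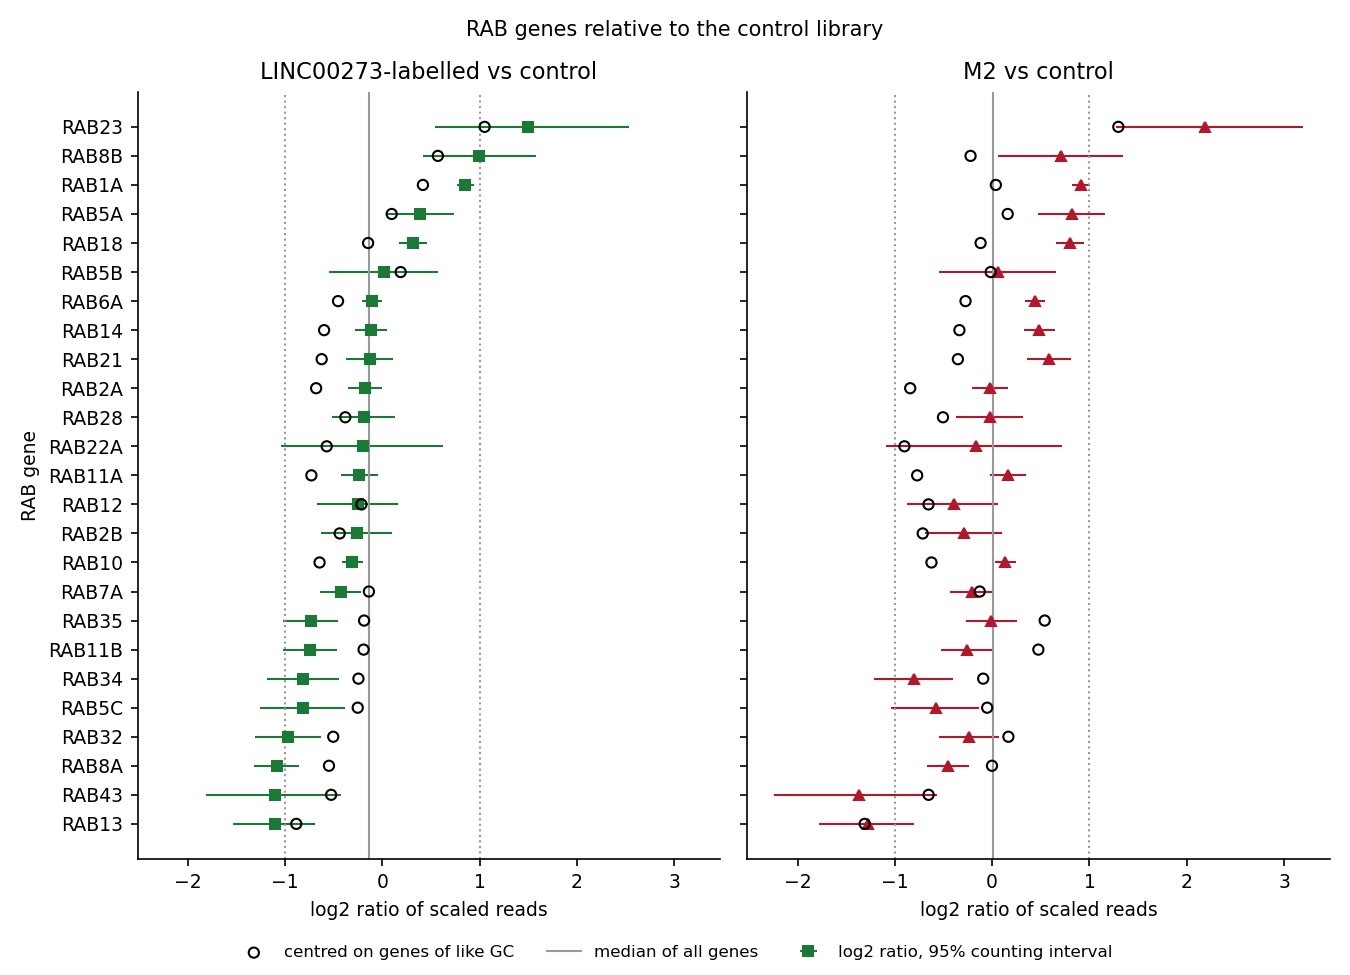
Log2 ratios of scaled reads to the control for the 25 RAB genes, ordered by the LINC00273-labelled library (left panel, squares) and in the same order for M2 (right panel, triangles), with 95% counting intervals. Open circles show GC-centred ratios (the median of genes with like GC content taken off), grey lines the median of all protein-coding genes and dotted lines 2-fold: RAB23 lies at 1.5 and 2.19, and RAB13 at −1.11 and −1.28.

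The second comparison asks the same of M2, and it shares the control library with the first, so the values of both are given side by side without an overlap or a correlation between them. RAB23 was at least 2-fold higher than the control, and RAB13 and RAB43 were at least 2-fold lower. RAB1A, RAB5A of the early endosome, RAB18 of lipid droplets and the endoplasmic reticulum, and RAB8B were between 1.5-fold and 2-fold higher. RAB34, known at the Golgi and in lysosome positioning, was between 1.5-fold and 2-fold lower.

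One of 25 RAB genes was at least 2-fold higher, against a background of 16.3% of protein-coding genes, and 2 were at least 2-fold lower, against 9.16%. At 1.5-fold, 5 were higher (background 29.4%) and 3 lower (background 23.3%). After GC centring the counts were 1 higher and 8 lower. Throughout, backgrounds hold for the first scaling without centring. None is given for counts after GC centring or with other scalings, so those counts cannot be set against all genes. The median log2 ratio was −0.02, beside 0.01 over all protein-coding genes. It was above 0 for 11 genes (44.0%, beside 50.3% of all protein-coding genes) and below 0 for 14 (56.0%, beside 49.7%). The interval lay above 0 for 9 genes (36.0%, beside 33.8% of all protein-coding genes) and below 0 for 5 (20.0%, beside 26.4%). After GC centring RAB13 was left as the 1 gene at least 2-fold lower, and RAB23 as the 1 higher. Scaled to the total count, 4 were higher, and the median log2 ratio of all protein-coding genes rose by 0.26. With a minimum of 100 reads in 1 or both libraries compared, RAB23 was lost and 0 were higher.

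Of the 25 RAB genes compared, RAB23 had the largest log2 ratio with M2, 2.19 (1.27 to 3.20), which is 4.56-fold. It rests on the 27 and 80 reads given above. RAB3B, below the minimum with 2, 2 and 8 reads, had a log2 ratio of 2.62 (−0.72 to 8.24). RAB13 had a log2 ratio of −1.28 (−1.78 to −0.80), or 2.43-fold lower, and RAB43 one of −1.37 (−2.24 to −0.57). RAB1A had a log2 ratio of 0.92 (0.82 to 1.01), close to its 0.85 in the LINC00273-labelled library. RAB18 had 1472, 1560 and 1665 reads in the control, the LINC00273-labelled library and the M2 library, and log2 ratios of 0.32 (0.17 to 0.46) and 0.80 (0.65 to 0.94), which GC centring turned to −0.15 and −0.12. RAB21, which takes part in integrin uptake, had 633, 492 and 617 reads, and with M2 its log2 ratio was 0.58 (0.35 to 0.82), and −0.35 after centring. RAB34 had 384, 186 and 143 reads and log2 ratios of −0.81 (−1.19 to −0.45) and −0.80 (−1.22 to −0.40).

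RAB8A and RAB35 were nearer to the control with M2 than in the LINC00273-labelled library. With M2, RAB8A had a log2 ratio of −0.45 (−0.67 to −0.24) and RAB35 one of −0.01 (−0.27 to 0.26). RAB32 had a log2 ratio of −0.23 (−0.55 to 0.07) with M2.

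In a direct comparison of the M2 library with the LINC00273-labelled library, 0 of the 25 RAB genes were at least 2-fold apart in either direction. The backgrounds were 2.86% higher and 3.88% lower. These are counts by size with no test. At 1.5-fold, 6 were higher with M2 (background 19.0%) and 0 lower (background 9.90%). The 6 were RAB14, RAB21, RAB23, RAB32, RAB35 and RAB8A, with log2 ratios from 0.61 for RAB14 to 0.73 for RAB32. After GC centring 3 were 1.5-fold higher, RAB11B, RAB32 and RAB35, and RAB8B was lower. Scaled to the total count the 6 genes had log2 ratios from 0.34 to 0.47, under 1.5-fold. As first scaled, the log2 ratio was 0.64 (0.37 to 0.90) for RAB8A, 0.73 (0.42 to 1.04) for RAB35 and 0.69 (−0.02 to 1.40) for RAB23. The median log2 ratio of the family was 0.23, the same to 2 decimals as over all protein-coding genes, and the interval lay above 0 for 11 genes (44.0%, beside 34.8%) and below 0 for 0 (beside 7.48%). Scaled to the total count, the median of all protein-coding genes moved by 0.52, 0.26 and −0.26 in the 3 comparisons, and that of the RAB genes became 0.28, 0.23 and −0.03.

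The balance between paralogues was compared within each library, where it does not depend on scaling, and it differed for RAB8, RAB5 and, between the control and the LINC00273-labelled library, RAB11. In each case the share of the paralogue with the lowest GC content was higher than in the control. GC centring, given below, made the differences between RAB5A and RAB5C smaller. It reversed that of RAB11 in both libraries and that of RAB8 with M2. Among RAB8A and RAB8B, which serve the same route to the cell surface, RAB8B held 84 of 1186 reads in the control, or 7.08% (5.15 to 9.45). It held 142 of 584, or 24.3% (19.5 to 29.7), in the LINC00273-labelled library, and 89 of 613, or 14.5% (10.8 to 19.0), with M2. The intervals of the 3 libraries do not overlap, and the LINC00273-labelled library was the highest.

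Among the RAB5 genes, which control fusion of early endosomes, RAB5A held 269 of 673 reads in the control, or 40.0% (34.7 to 45.4). Its share was 55.5% (49.3 to 61.5) in the LINC00273-labelled library and 60.0% (53.8 to 66.1) with M2, above the control in both. RAB5C had 283, 137 and 123 reads, and its share went from 42.1% (36.7 to 47.5) to 25.3% (20.3 to 30.9) and 24.0% (18.9 to 29.7). For RAB5C, 31.7% of 100-base stretches are shared with 1 other annotated gene. RAB5B had 121, 104 and 82 reads, and its shares of 18.0%, 19.2% and 16.0% had overlapping intervals. The log2 ratio to the control was 0.39 for RAB5A against −0.81 for RAB5C in the LINC00273-labelled library, and 0.82 against −0.58 with M2.

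RAB11A, the main recycling endosome RAB, had 1113, 804 and 810 reads and held 63.1% (59.8 to 66.3), 70.8% (66.8 to 74.5) and 69.6% (65.7 to 73.3) of the RAB11A and RAB11B reads. RAB11B had 651, 332 and 354 reads, so that its share was lower in both other libraries, where the interval of M2 met that of the control. RAB1B, the close relative of RAB1A, had 23, 10 and 17 reads, or 0.659%, 0.188% and 0.398% of the RAB1 reads. RAB6A had 3383, 2675 and 2987 reads, at least 99.4% of the RAB6 reads in each library. RAB6B had 6, 5 and 0 reads and RAB6C 8, 10 and 2, and 32.5% of the 100-base stretches of RAB6C are shared with RAB6 copies. RAB2A and RAB2B, of the Golgi, had overlapping shares in the 3 libraries, with RAB2A at 79.7%, 80.6% and 82.5%.

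**Figure D3:**
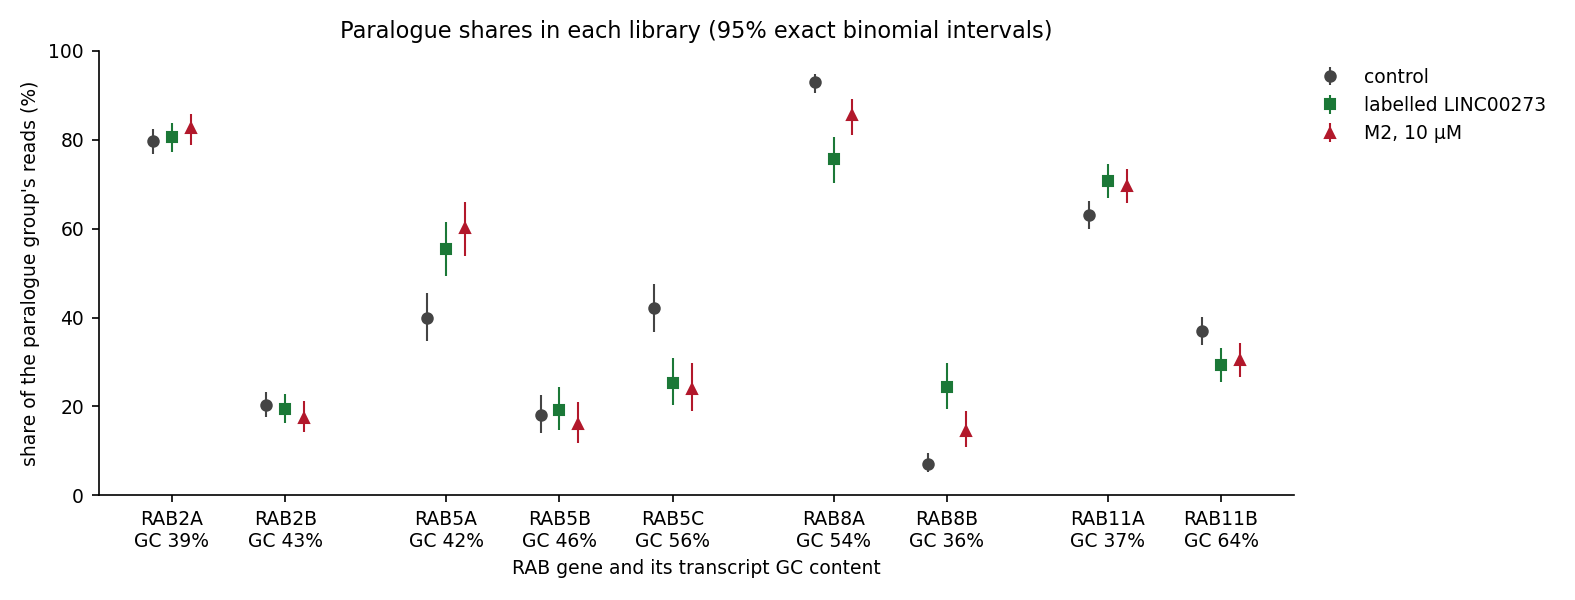
Share of each paralogue in the reads of its group (RAB2, RAB5, RAB8 and RAB11) in each library, in percent, with 95% exact binomial intervals and the GC content of its transcript under its name. RAB8B goes from 7.08% in the control to 24.3% and 14.5%, and RAB5A from 40.0% to 55.5% and 60.0%, while RAB2A stays near 80.6%.

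The RABs of regulated secretion were near the detection limit. RAB27A, which docks secretory organelles and exosome-bearing bodies, had 12, 6 and 4 reads, and RAB27B had 0, 2 and 6. RAB3A had 0, 4 and 2 reads, RAB3B 2, 2 and 8, RAB3C 0, 0 and 4, and RAB3D 4, 4 and 2. With so few fragments no difference between the libraries was detectable for these genes. The same holds for RAB25, the epithelial RAB11 relative, with 2, 2 and 0 reads, and for RAB40A, RAB40B and RAB40C, whose highest count was 14. The most read genes below the minimum were RAB30, a Golgi RAB with 40, 22 and 18 reads, and RAB37, a secretory granule RAB with 45, 19 and 6 and a log2 ratio of −2.29 (−4.67 to −0.55) with M2. RAB31, of endosomes, had 26, 6 and 4 reads, and RAB4A, of fast recycling, had 24, 10 and 4, and their intervals with M2 held 0. In the LINC00273-labelled library the log2 ratio of RAB31 was −1.88 (−4.34 to −0.02).

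The authors' deposited table of significant genes for the LINC00273-labelled library lists 809 genes, 1 of them a RAB gene. It is RAB39B, given as 6.20-fold up, and its recovered reads were 2 in the control and 10 in the LINC00273-labelled library. The authors' deposited table for M2 lists 670 genes, 3 of them RAB genes. It gives RAB23 as 4.80-fold up, RAB3B as 6.48-fold up and RAB37 as 4.63-fold lower, and of these 3 RAB23 is the gene above 100 reads.

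The ratios of RAB genes followed the GC content of their transcripts. The 7 genes with a GC content of 50 percent or more, RAB11B, RAB32, RAB34, RAB35, RAB43, RAB5C and RAB8A, were all below the control in both other libraries, with median log2 ratios of −0.81 and −0.45. With M2, RAB35 stood at −0.01 (−0.27 to 0.26), and it turned positive with DESeq2 size factors (0.04), the deposited size factors (0.07) and the total count (0.25). RAB32 stood at 0.02 with the total count. Most protein-coding genes of such GC content were below the control too: the upper quartile was below 0 in each bin from 51 to 69 percent. Of the 18 RAB genes with a GC content under 50 percent, 6 were above the control in the LINC00273-labelled library (median log2 ratio −0.16) and 11 with M2 (median 0.15). In the LINC00273-labelled library, bin medians of all protein-coding genes ran from 0.48 at 36 to 39 percent to −0.19 at 45 to 48 percent. With M2 the same bins ran from 0.90 to 0.04. After GC centring the medians of the 18 were −0.41 and −0.34, below genes of like GC content. The rank correlation of log2 ratio with GC content over the 25 genes was −0.78 in the LINC00273-labelled library and −0.79 with M2, and over all protein-coding genes it was −0.56 and −0.67. These are descriptions over genes that share 2 libraries. Between the M2 and the LINC00273-labelled library the rank correlation was −0.06 over the RAB genes and −0.38 over all genes.

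With each ratio centred on the running median of protein-coding genes of like GC content, RAB23 went from 1.5 to 1.05 and from 2.19 to 1.30 on the log2 scale in the LINC00273-labelled and M2 libraries. RAB13, whose transcript GC content is 46.7%, stood at −0.88 and −1.31. RAB8A went to −0.55 and −0.00, and RAB1A to 0.42 and 0.04, so that both were near 0 with M2. For RAB8B and RAB8A the difference in log2 ratio was 2.08 in the LINC00273-labelled library and 1.12 after centring, and with M2 it was 1.16 and −0.22. For RAB5A and RAB5C it was 1.20 and 0.35 after centring in the LINC00273-labelled library, and 1.40 and 0.21 with M2. For RAB11A and RAB11B centring reversed the difference, from 0.50 to −0.54 and, with M2, from 0.42 to −1.25. The median of the 25 RAB genes after centring was −0.38 and −0.22, with 20 and 19 genes below 0. Whether GC content accounts for the differences was not tested.

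**Figure D4:**
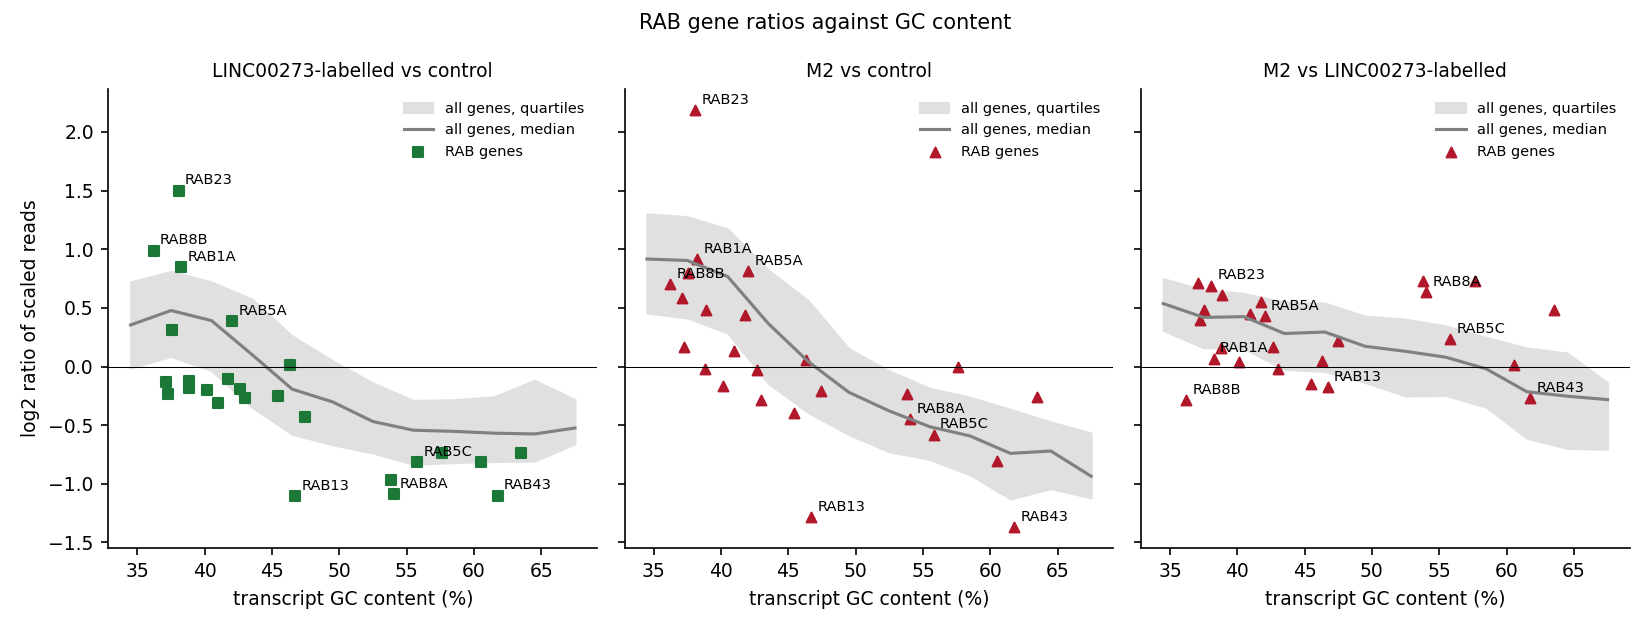
Log2 ratio of scaled reads of the 25 RAB genes (points) against the GC content of their longest coding transcript in percent, for each of the 3 comparisons. The grey line and band are the median and quartiles of all protein-coding genes in bins of 3 percentage points: RAB23 lies above the band in both comparisons with the control and RAB13 below it.

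The genes that load, release and read the RABs were taken from 5 lists. Of the genes that carry RABs to and from membranes, 4 of 8 had enough reads, with median log2 ratios of 0.05 in the LINC00273-labelled library and 0.06 with M2. CHM, the escort protein that presents new RABs for lipid attachment, had 56, 76 and 82 reads and a log2 ratio of 1.17 (0.44 to 1.92) with M2, which centring brought to 0.26.

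Among 25 exchange factors with enough reads, 1 was at least 2-fold higher and 3 lower in the LINC00273-labelled library, and 5 were higher and 0 lower with M2, beside the backgrounds of 5.96%, 6.04%, 16.3% and 9.16% given above. After GC centring 1 of those 4 (TRAPPC4) and 1 of those 5 (SBF2) stayed past 2-fold. The median log2 ratios of the list were −0.14 and 0.19. TRAPPC4 and TRAPPC3, core subunits of the TRAPP complexes that activate RAB1, had 280, 96 and 136 reads and 154, 60 and 74 reads, with log2 ratios of −1.31 (−1.82 to −0.83) and −1.13 (−1.79 to −0.50) in the LINC00273-labelled library. The TRAPPIII subunit TRAPPC8 had 105, 181 and 151 reads and went the other way, with 1.02 (0.51 to 1.54) and, with M2, 1.15 (0.62 to 1.68). MON1A, part of the RAB7 exchange factor, had 122, 50 and 42 reads and a log2 ratio of −1.06 in the LINC00273-labelled library. With M2 the highest was DENND4A, a RAB10 exchange factor, with 224, 336 and 441 reads and a log2 ratio of 1.60 (1.26 to 1.94). SBF2, at 107, 161 and 177 reads, had a log2 ratio of 1.35 (0.84 to 1.87), and DENND5B, at 52, 88 and 74 reads, one of 1.13 (0.37 to 1.91). CCZ1 and CCZ1B, near-identical partners of MON1 whose reads may be split between them, had 74, 44 and 84 reads and 59, 32 and 62 reads, and log2 ratios of 1.32 (0.55 to 2.14) and 1.34 (0.43 to 2.31) between M2 and the LINC00273-labelled library.

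Of 20 TBC-domain genes, 5 were at least 2-fold higher and 1 lower in the LINC00273-labelled library, and 4 were higher and 1 lower with M2, beside the same backgrounds. After GC centring 0 of those 6 and 2 of those 5 (RABGAP1L and USP6NL) stayed past 2-fold. The median log2 ratios of the list were −0.21 and 0.21, and 0.23 and 0.18 after centring. SGSM3, at 143, 58 and 66 reads, was the lower gene of the LINC00273-labelled library. RABGAP1L was the highest in both, with 70, 161 and 190 reads and log2 ratios of 1.43 (0.84 to 2.05) and 2.06 (1.49 to 2.66), and 0.96 and 1.16 after centring. USP6NL, a GTPase-activating protein for RAB5, had 60, 104 and 140 reads and log2 ratios of 1.03 (0.35 to 1.72) and 1.84 (1.21 to 2.51). TBC1D15, which acts on RAB7, had 76, 156 and 137 reads and log2 ratios of 1.27 (0.69 to 1.87) and 1.47 (0.88 to 2.08). EVI5, a RAB11-binding member, had 32, 62 and 26 reads and TBC1D8B 69, 127 and 63, with log2 ratios of 1.19 and 1.11 in the LINC00273-labelled library. TBC1D1, at 100, 64 and 30 reads, was the gene at least 2-fold lower with M2, at −1.12 (−2.05 to −0.26). TBC1D5, at 70, 48 and 84 reads, was 2.29-fold higher with M2 than in the LINC00273-labelled library.

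Among the 4 lists with at least 4 genes past the minimum, effectors had the highest medians before GC centring, and after it TBC-domain genes did in the LINC00273-labelled library. Over 22 genes the median log2 ratio was 0.33 in the LINC00273-labelled library, where 0 were at least 2-fold apart in either direction. With M2 it was 0.64, with 7 genes at least 2-fold higher (background 16.3%) and 1 lower (background 9.16%). Centring brought the medians to 0.18 and 0.21 and left 0 of the 8 genes past 2-fold. KIF5B, a kinesin motor, had 1571, 2298 and 2694 reads and a log2 ratio of 1.40 (1.27 to 1.53) with M2. APPL1, a RAB5 effector on signalling endosomes, had 504, 577 and 797 reads and a log2 ratio of 1.28 (1.05 to 1.52). EHBP1, at 101, 123 and 146 reads, had a log2 ratio of 1.15 with M2, and its relative EHBP1L1, at 108, 64 and 29 reads, one of −1.28 (−2.22 to −0.42). EEA1, the tether of early endosomes, had 119, 104 and 164 reads and was 2.12-fold higher with M2 than in the control and 2.07-fold higher than in the LINC00273-labelled library. Of 3 RAB kinases, TBK1 had 92, 126 and 124 reads and a log2 ratio of 1.05 (0.48 to 1.63) with M2, which centring brought to 0.24. LRRK1 had 37, 42 and 24 reads and a log2 ratio of −0.00 (−1.18 to 1.12) with M2. LRRK2, which phosphorylates RAB8A and RAB10, had 42, 31 and 23 reads and was below the minimum.

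**Figure D5:**
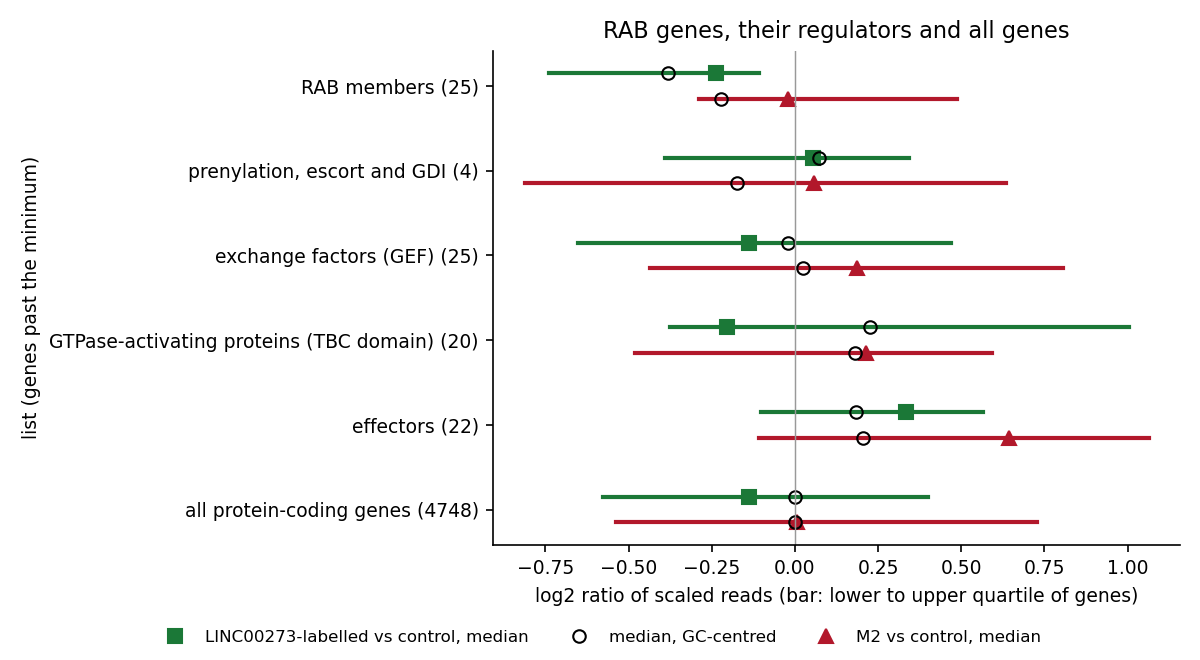
Median log2 ratio to the control (filled symbols) with the lower and upper quartile of the genes (bars) for the 25 RAB genes, the lists of their regulators and effectors, and all protein-coding genes, with medians after GC centring as open circles. Effectors lie to the right of the other lists at 0.33 and 0.64, and the RAB genes at −0.24 and −0.02.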

How the data were processed

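RNA of 3 libraries, 1 per group, was used. The submitters' processing notes name Trimmomatic, Bowtie2 2.2.4, STAR, DESeq2 and featureCounts 1.5.2 with hg19. How each tool was set, the strand mode, the gene annotation and the handling of multi-mapping reads were not given in the sources used here. The deposited signal per gene is reads divided by 1 factor per library, and 100% of values came out as whole reads. The tolerance was 0.01 at low counts and widened in proportion at high counts, so the check was loose for the most read genes. These reads were used where the design planned on deposited counts. The ratio (fold) and log2 columns deposited by the authors are quoted as theirs.

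TMM factors from edgeR 4.0.16 in R 4.3.3 scaled the reads. Single libraries leave a gene model 0 residual degrees of freedom, so none was fitted, no p-value is given and the number of genes a count test calls is not known. A gene was compared with at least 100 reads over the 3 libraries, and 2-fold was the limit. A gene past the minimum through 1 high library would tend to differ, and the sum over all 3 libraries limits this without removing it. RAB23, with 27, 65 and 80 reads, passed mainly through the libraries where it was higher, so the minimum favoured its call. RAB37, with 45, 19 and 6 reads, was highest in the control and was not compared. GC content, length and exact 100-base copies came from GENCODE 29 transcripts on GRCh38, matched by Ensembl ID for 60 of 60 RAB genes. Reads copied by PCR carry no molecular identifiers, and the intervals do not cover that. Intervals were also run on simulated fragments drawn from the counting model that they assume, which cannot show how well they hold for real libraries.

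The RAB genes and lists were chosen with earlier results of these data known. The genes named were those at least 2-fold apart in any comparison, the 8 highest per length in the control, all members of the RAB1, RAB3, RAB5, RAB6, RAB8, RAB11 and RAB27 groups, and up to 4 genes per regulator list and comparison; further genes were named after their values were seen. One gene that the rule names is not reported here. The alternatives were other scalings, other read minimums, a prior of 5 reads, GC centring and a 1.5-fold limit.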

Additional observations from a re-analysis of the deposited data

How the results depend on the processing

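Of 7 log2 ratios of RAB genes at least 2-fold apart, 7 kept their sign under the 4 other scalings, the prior of 5 reads and GC centring. Past 2-fold were 7 of them with DESeq2 size factors, TMM on protein-coding genes, the deposited size factors and the prior, 4 with the total count and 3 after GC centring. Counts of genes at least 2-fold apart moved as follows in the first comparison (LINC00273-labelled against control). The 1 higher gene became 2 with DESeq2 or deposited size factors, 3 with the total count or at 1.5-fold, 4 without a read minimum, and 0 with a minimum of 500 reads or of 100 reads in 1 or both libraries compared. The 3 lower genes became 0 with the total count, after GC centring or without genes that have exact copies elsewhere (chosen after seeing the data), 6 with a minimum of 20 reads or none, and 8 at 1.5-fold. For M2 against control, the 1 higher gene became 2 with a minimum of 20 reads, 4 without a minimum or with the total count, 5 at 1.5-fold, and 0 with a minimum of 500 or of 100 in 1 or both libraries. The 2 lower genes became 6 with a minimum of 20 or none, 1 with a minimum of 500 or GC centring, and 0 without genes that have copies. For M2 against the LINC00273-labelled library, the counts of 0 became 1 higher and 2 lower with a minimum of 20, 3 and 4 with none, and 6 higher at 1.5-fold. Median log2 ratios moved beyond the counting interval of the middle gene with the total count, to 0.28 (first comparison) and 0.23 (M2 against control), and after GC centring, to −0.22 (M2 against control). That interval belongs to 1 gene and does not measure the spread of a median. For M2 against the LINC00273-labelled library the middle gene was RAB5C, with a wide interval (−0.29 to 0.75). There the median went from 0.23 to −0.03 with the total count and to 0.02 after GC centring, inside that interval. Changes with another minimum or limit follow from the genes admitted or the limit; for the scalings and GC centring the cause was not tested. No paired analysis was possible because each group is 1 library. Depth limits 35 of 60 genes, which were not compared.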

Other observations

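Some further genes whose symbols begin with RAB, but fall outside the naming rule, were read at low levels. RABL6 had 76 reads in the control, 28 in the LINC00273-labelled library and 24 with M2, and its log2 ratios to the control were −1.21 (−2.21 to −0.29) and −1.04 (−2.11 to −0.07), and −0.64 and −0.31 after centring on genes of like GC content. RABL3 had 48, 72 and 52 reads and a log2 ratio of 0.82 (0.03 to 1.63) in the LINC00273-labelled library. RAB7L1, RABL5 and RABL2A had 10, 12 and 2, 18, 14 and 10, and 9, 4 and 8 reads. The pseudogene RAB43P1, a source of shared sequence for RAB43, had 40, 28 and 26 reads, and its log2 ratios of −0.28 and −0.00 had intervals that held 0. These genes were chosen after their values were seen.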
